A study of Rattus norvegicus with 15 samples.

Results

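Chemokine genes were followed after x-ray exposure in brain microvascular endothelial cells (BMECs) grown from rats. The genes were Cxcl12, its receptors Ackr3 and Cxcr4, and the ligands Ccl2, Ccl7, Cxcl1, Cxcl16 and Cx3cl1. They were found by gene name, and unnamed transcripts assembled at a locus that holds only that name were added. This gave 8 of 37367 genes, with 15 of the 85322 transcripts in the table. For each gene, the FPKM (fragments per kilobase of transcript, scaled to library size) of its transcripts were summed in each library.

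Primary BMECs came from the cerebral microvessels of littermate rats of 2 to 3 weeks, of a strain the labels spell Spraque-Dawley. Cells at 60% confluence received no irradiation (control), 5 Gy or 20 Gy at 2.5 Gy/min, and were collected 12 h or 24 h after the exposure. Each of the 5 groups held 3 libraries, and the label of the control gives a culture of 12 h. Since unexposed cells of the later time were not analysed here, time after exposure and time in culture cannot be told apart at 24 h. The study used 6 rats, and which rats gave which library is not given in the sources used here, so p-values measure only the spread between these libraries.

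Chemokines are small secreted proteins that attract leukocytes through receptors coupled to G proteins. CXCL12 signals through CXCR4, while ACKR3, an atypical receptor, recruits arrestins instead of G proteins and takes up CXCL12 from outside the cell. CCL2 and CCL7 attract monocytes and CXCL1 attracts neutrophils, whereas CXCL16 and CX3CL1 are made as membrane-bound proteins that proteases can shed. On brain vessels, these molecules take part in the passage of leukocytes into the tissue.

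The sequence before the start site was taken from RefSeq (build GRCr8) for the genes found there, 7 of the 8, with Ccl2 not among them. Cxcl1 and Ccl7 are shown because their FPKM rose the most of the ligands 24 h after 20 Gy. The last 150 bases before the start are given 5′ to 3′ on the strand of the gene, for Cxcl1 at chr14:17479322-17479471 (reverse strand) and for Ccl7 at chr10:67513945-67514094 (forward strand). Capitals mark a match to the NF-kB consensus in Cxcl1 and to the AP-1 motif TGANTCA in Ccl7.
Cxcl1: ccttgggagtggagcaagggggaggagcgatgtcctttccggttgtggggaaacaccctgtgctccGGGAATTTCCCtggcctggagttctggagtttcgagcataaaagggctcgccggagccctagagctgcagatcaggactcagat
Ccl7: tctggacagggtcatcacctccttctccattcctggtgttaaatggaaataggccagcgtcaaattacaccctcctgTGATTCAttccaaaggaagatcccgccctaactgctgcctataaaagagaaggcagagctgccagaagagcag
Counted back from the start site, the capitals of Cxcl1 cover positions -84 to -74, where 2 matches overlap, and those of Ccl7 positions -73 to -67. On either strand of the 250 bases before the start, the NF-kB consensus was found in 1 of the 7 genes and in 3.541% of 33469 rat promoters. The AP-1 motif was found in 1 of 7 and in 6.34% of all promoters. The hypoxia response motif ACGTG was in 0 of 7 against 16.57%, and the TATA motif TATAAA in 4 of 7 (Ackr3, Cxcr4, Ccl7 and Cx3cl1) against 12.93%. These matches describe the letters of the windows only.

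The libraries held an estimated 5.53 to 7.58 gigabases of aligned sequence, read from the steps between low FPKM values. The label of an endothelial culture was checked against 11 endothelial markers. Their summed FPKM was 2.44 to 6.63 over the 15 libraries, Tie1 and Emcn were listed at 0 in every library, and only Flt1 and Kdr had a mean FPKM of at least 0.5. The defining markers Cldn5, Cdh5 and Vwf did not exceed 0.0328, 0.275 and 0.110 FPKM. The culture is therefore named here by its label only. Fibroblast markers summed to 1798 to 1987 FPKM in the control group and to 272 to 326 FPKM at 24 h, with 5 of 6 tested markers lower than in the control group at each dose. Pericyte markers summed to 152 to 160 FPKM in the control group and to 49.9 to 87.7 FPKM at 24 h, with 3 of 3 tested markers lower at each dose. These were Pdgfrb, Cspg4 and Anpep, which made up nearly all of the sum. Of the 6 pericyte markers, Kcnj8 and Abcc9 were listed at 0 in every library and Rgs5 did not exceed 0.227 FPKM. Astrocyte markers summed to 9.80 to 12.4 FPKM in the control group and 18.7 to 31.98 FPKM in the exposed libraries, with 1 of 2 tested markers, Aldh1l1, higher in each exposed group. Most of this sum was Aldh1l1, while Aqp4 was listed at 0 in every library and Gfap did not exceed 0.182 FPKM. Over all libraries, smooth muscle markers summed to 22.0 to 46.5 FPKM, neuronal markers to 2.91 to 12.1, oligodendrocyte markers to 0.254 to 1.22, and markers of microglia and macrophages to 0.174 to 1.82. The smooth muscle sum was mostly Tagln, with Acta2 at 0.576 FPKM or less. The neuronal sum was mostly Syt1, with Rbfox3 at 0 throughout. In bulk RNA, fewer cells of a type and less RNA per cell cannot be told apart, and the part of these marker changes in the results below was not tested. A pair of libraries stood apart within their groups. In the third library 12 h after 5 Gy and the first library 24 h after 20 Gy, 210 and 199 genes lay at least 1 log2 unit below both other libraries of the group, against 90 to 144 genes in the other libraries.

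Differences were tested with limma on log2(FPKM + 1) over the 17895 genes with a mean FPKM of at least 0.5, which left out 1 of the 8 genes, Cxcr4. Ccl7 passed this limit only through the libraries 24 h after 20 Gy, since the other 12 libraries averaged 0.405 FPKM, so its entry into the test was not independent of its difference. The other 6 genes passed without any single group. A gene was called at a Benjamini-Hochberg adjusted p below 0.05 over all genes tested and a fold change of at least 1.5. Log2 fold changes are on the log2(FPKM + 1) scale, which understates the change of low genes. The 4 comparisons with the control group share the same 3 control libraries. An exact permutation test of 3 libraries against 3 cannot give a p below 0.1, which is the value when the groups do not overlap.

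Of the 7 genes tested, 4 were called 12 h after 5 Gy, where 9.94% of all genes tested were called, and 3 were called 12 h after 20 Gy, where the share was 8.54%. At 24 h, 5 were called after 5 Gy against a background of 41.3%, and 4 after 20 Gy against 40.3%, so at this time a large part of all genes changed as well. The 4 called 24 h after 20 Gy include Ccl7, which entered the test only through this group. The median log2 fold change of the 7 genes was -0.45, -0.10, -0.47 and -0.23 in these 4 comparisons, and that of all genes tested was 0.03, 0.01, -0.05 and -0.14. Ackr3 was higher and Cxcl16 lower in all 4 exposed groups. Cxcl1 was higher at 24 h at both doses and Ccl7 at 24 h only after 20 Gy, while Ccl2 was lower in every exposed group but this one.

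**Figure D1:**
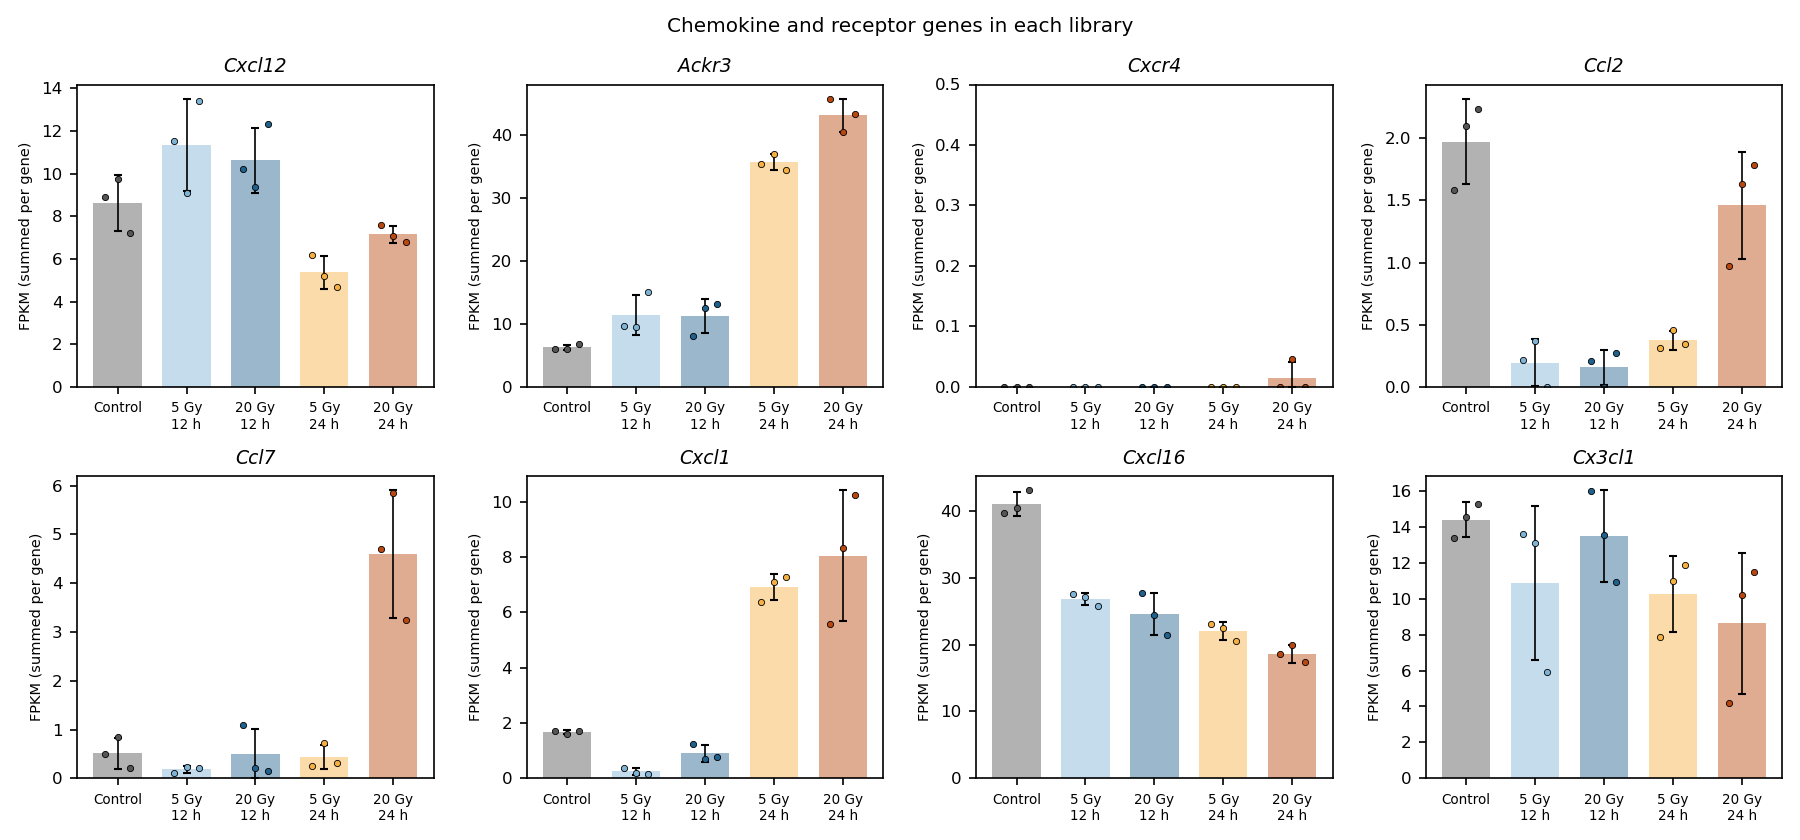
FPKM (y axis, summed per gene, linear and different for each panel) of the 8 genes in the 5 groups (x axis). Points are the 3 libraries of a group, bars the mean and whiskers the SD. Ackr3 lies at 34.5 to 45.6 FPKM in the 6 libraries of 24 h and at 5.99 to 15.03 FPKM in the other 9, and Cxcr4 is at 0 in 14 of 15 libraries.

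Ackr3, the scavenging receptor of CXCL12, rose against the control group in all 4 comparisons. On the log2(FPKM + 1) scale its rise at 24 h was the largest among the 7 genes tested, while by the ratio of mean FPKM 24 h after 20 Gy that of Ccl7 was larger (8.95 against 6.90). The gene spans chromosome 9, 97355924 to 97367445 (Rnor_6.0, forward strand), with an annotated transcript of 2 exons that carried nearly all of its FPKM. In the control libraries its level was 6.01, 5.99 and 6.73 FPKM. At 12 h it was 9.61, 9.46 and 15.03 FPKM after 5 Gy and 8.13, 12.5 and 13.1 FPKM after 20 Gy. At 24 h it was 35.4, 37.0 and 34.5 FPKM after 5 Gy and 45.6, 40.4 and 43.3 FPKM after 20 Gy. Every exposed library thus lay above every control library, the libraries of the 2 doses overlapped at 12 h, and at 24 h those of 20 Gy were all above those of 5 Gy.

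Against the control group, Ackr3 rose by a log2 value of 0.74 (SE 0.173, adjusted p = 0.00972) 12 h after 5 Gy and 0.73 (adjusted p = 0.0123) 12 h after 20 Gy. At 24 h it rose by 2.34 (adjusted p = 2.05e-07) after 5 Gy and 2.61 (adjusted p = 8.65e-08) after 20 Gy, which was 5.71 and 6.90 times the mean FPKM of the control group. From 12 h to 24 h it rose by 1.60 after 5 Gy (adjusted p = 7.05e-06) and by 1.88 after 20 Gy (adjusted p = 1.81e-06). The 12 h calls were the less stable ones. Without the third library, which stood apart, the value 12 h after 5 Gy was 0.54, below the fold limit, and without the second or the third library 12 h after 20 Gy the adjusted p was 0.0517 or 0.0584. Between the doses, the log2 difference of 20 Gy from 5 Gy was -0.01 at 12 h (95% interval -0.40 to 0.37) and 0.27 at 24 h (-0.12 to 0.65, adjusted p = 0.434), so no difference between the doses passed the test.

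Cxcl12, the ligand of both receptors, moved less than Ackr3. Its locus spans chromosome 4, 149261005 to 149273891 (forward strand). Its level was 8.91, 9.75 and 7.20 FPKM in the control libraries. At 12 h it was 11.5, 9.10 and 13.4 FPKM after 5 Gy and 10.2, 9.36 and 12.3 FPKM after 20 Gy. The 24 h libraries held 6.21, 5.20 and 4.69 FPKM after 5 Gy and 7.59, 7.06 and 6.80 FPKM after 20 Gy. In the order of the group means, both 12 h groups overlapped with each other and with the control group, and the control group overlapped with 20 Gy at 24 h. Only the 5 Gy libraries at 24 h lay below those of all other groups. Summed FPKM depends on how reads are divided between transcripts of unlike length. Estimated reads, not scaled to depth, were 1253 to 1460 in the control libraries. At 12 h they were 1564 to 1875 after 5 Gy and 1341 to 1743 after 20 Gy. By 24 h they were 573 to 749 after 5 Gy and 933 to 1115 after 20 Gy, both below the control libraries. These read numbers were not tested.

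At 24 h after 5 Gy, Cxcl12 fell by a log2 value of 0.59 against the control group (SE 0.149, adjusted p = 0.00397) and by 0.95 from 12 h to 24 h after this dose (adjusted p = 0.00015). The first of these lies at the fold limit and was lost when any of 4 libraries was left out or the values were rescaled to TPM, with -0.58 to -0.51 in these fits. The other comparisons with the control group were not called, with 0.35 (adjusted p = 0.121) and 0.27 (adjusted p = 0.245) at 12 h after 5 Gy and 20 Gy, and -0.23 (adjusted p = 0.2) 24 h after 20 Gy. From 12 h to 24 h after 20 Gy the change was -0.51 (adjusted p = 0.0116), below the fold limit, although the libraries of the 2 times did not overlap. The dose difference at 24 h was 0.36 (95% interval 0.03 to 0.69, adjusted p = 0.196).

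The FPKM of Cxcl12 was divided between 3 transcripts, and this division differed between libraries more than the sum did. An assembled transcript of 4 exons and 2883 bases carried 84.0% to 90.3% of the sum 12 h after 20 Gy and 90.5% to 98.9% at 24 h after this dose. In the 5 Gy libraries at 24 h it carried 4.00% to 22.8%, and an assembled transcript of 5 exons and 2430 bases, listed at 0 in the other 12 libraries, carried 61.0% to 76.4%. The annotated transcript, of 4 exons and 5423 bases, varied from 3.54% to 43.3% within the control group. With the transcript of the highest mean FPKM in place of the sum, Cxcl12 was called between the doses at 24 h (2.33, adjusted p = 0.00833). With the annotated transcript alone, it was called in no comparison, with -0.69 (adjusted p = 0.309) 24 h after 5 Gy. A change in transcript use and a change in how reads were divided between overlapping transcripts cannot be told apart in these values.

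Cxcr4, the signalling receptor of CXCL12, was listed at 0 in 14 of the 15 libraries. It spans chromosome 13, 45314933 to 45318878 (reverse strand), with 2 annotated transcripts. The second library 24 h after 20 Gy held 0.0458 FPKM, which corresponds to about 4 reads, and no test was made. A value of 0 can be a failed estimate in such a table, where 26 genes at 5 FPKM or more in at least 12 libraries were listed at 0 in another library. Of the 2 receptors of CXCL12, only Ackr3 was thus above 0.5 FPKM in any group.

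**Figure D2:**
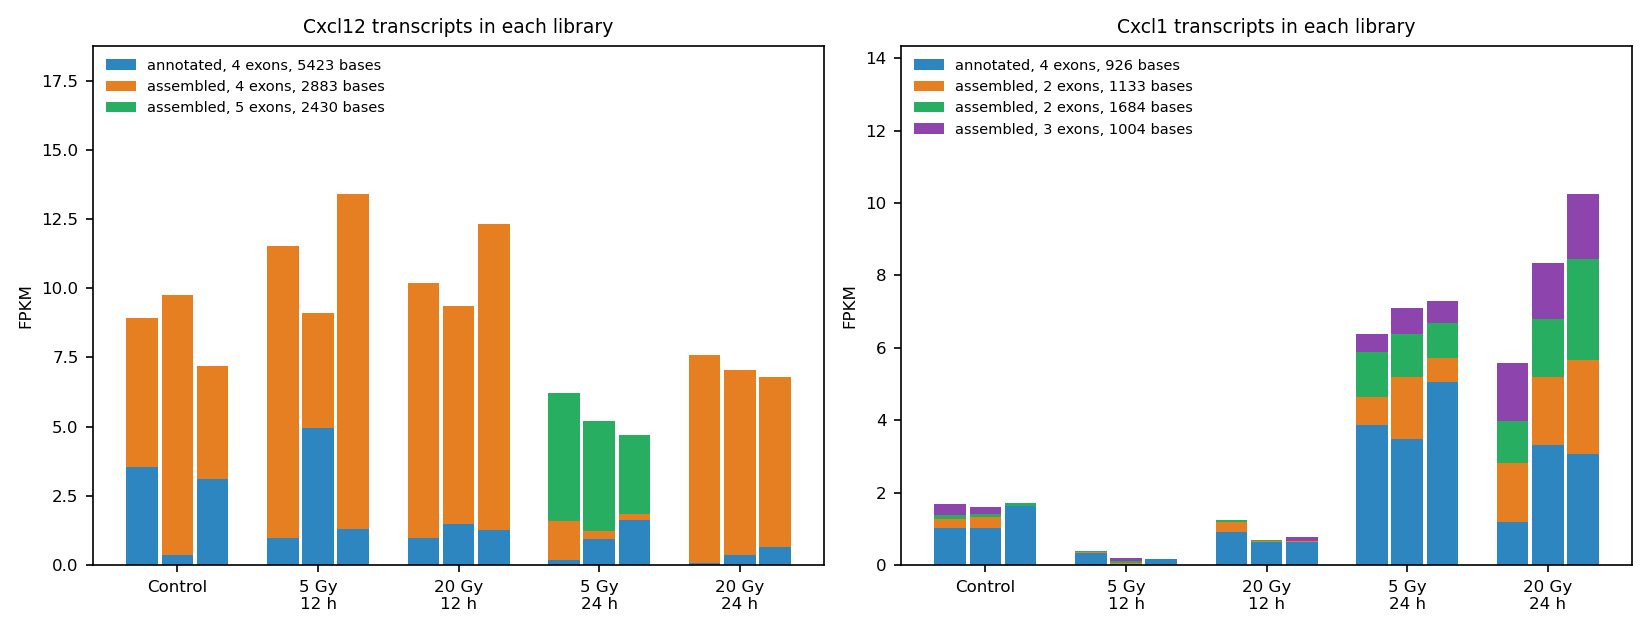
FPKM (y axis) of each transcript of Cxcl12 (left) and Cxcl1 (right), stacked for each of the 15 libraries (x axis, 3 bars a group). The assembled Cxcl12 transcript of 5 exons is present only in the 5 Gy libraries at 24 h, with 2.86 to 4.61 FPKM, and the annotated Cxcl1 transcript is 21.1% to 39.7% of the sum 24 h after 20 Gy against 60.5% to 94.5% in the control group.

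Ccl2 and Ccl7, which encode monocyte attractants, are neighbouring forward-strand genes on chromosome 10 (69412017 to 69413870 and 69423086 to 69424979). Each has 1 annotated transcript of 3 exons. The level of Ccl2 was 1.59, 2.10 and 2.23 FPKM in the control libraries. At 12 h it was 0.217 and 0.370 FPKM after 5 Gy, with the third library listed at 0, and 0.205 and 0.269 FPKM after 20 Gy, with the second library listed at 0. By 24 h the level was 0.316, 0.459 and 0.348 FPKM after 5 Gy and 0.974, 1.63 and 1.79 FPKM after 20 Gy. Ccl2 was thus below 0.5 FPKM in 3 of the 5 groups, where its values correspond to at most 14 reads a library, and the libraries of 20 Gy at 24 h overlapped with the control group.

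The fall of Ccl2 at 12 h was 1.32 after 5 Gy (SE 0.160, adjusted p = 0.000126) and 1.36 after 20 Gy (adjusted p = 0.000127), as log2 fold changes. At 24 h it fell by 1.11 after 5 Gy (adjusted p = 5.97e-05), while after 20 Gy the change was -0.28 (adjusted p = 0.148). From 12 h to 24 h it rose by 1.08 after 20 Gy (adjusted p = 9.5e-05), and the change after 5 Gy was 0.21 (adjusted p = 0.283). These falls were called at both pseudocounts and without any single library.

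The level of Ccl7 was low in all groups but one. It was 0.490, 0.840 and 0.210 FPKM in the control libraries, and at 12 h 0.108, 0.236 and 0.213 FPKM after 5 Gy and 1.10, 0.216 and 0.159 FPKM after 20 Gy. At 24 h it was 0.254, 0.714 and 0.322 FPKM after 5 Gy, and 4.70, 5.84 and 3.23 FPKM after 20 Gy. The group mean was below 0.5 FPKM in the 12 h groups and 24 h after 5 Gy, where values correspond to 4 to 42 reads a library, against 121 to 251 reads 24 h after 20 Gy. All 3 libraries of the latter group lay above the other 12.

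Against the control group, Ccl7 rose by a log2 value of 1.88 at 24 h after 20 Gy (SE 0.242, adjusted p = 2.51e-05). It had entered the test only through this group, and with no filter on low values the adjusted p was 0.000178. In the other 3 comparisons its values were -0.33, -0.06 and -0.07 (adjusted p = 0.384 to 0.914), with groups that overlapped. From 12 h to 24 h it rose by 1.94 after 20 Gy (adjusted p = 2.45e-05), and the change after 5 Gy was 0.26 (adjusted p = 0.391).

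Cxcl1, a neutrophil attractant on chromosome 14 (18743685 to 18745457, reverse strand), fell 12 h after 5 Gy and rose at 24 h at both doses. Its level was 1.70, 1.61 and 1.72 FPKM in the control libraries. At 12 h it was 0.384, 0.191 and 0.172 FPKM after 5 Gy and 1.24, 0.681 and 0.779 FPKM after 20 Gy. After 24 h it was 6.37, 7.10 and 7.28 FPKM after 5 Gy and 5.57, 8.34 and 10.3 FPKM after 20 Gy. Neither 12 h group overlapped with the control group, the 12 h libraries of 20 Gy were all above those of 5 Gy, and the doses overlapped at 24 h. Only the group mean 12 h after 5 Gy was below 0.5 FPKM.

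Cxcl1 fell by a log2 value of 1.10 at 12 h after 5 Gy (SE 0.172, adjusted p = 0.000773). The value 12 h after 20 Gy was -0.50 and missed the threshold (adjusted p = 0.0627). At 24 h the gene rose by 1.56 after 5 Gy (adjusted p = 6.04e-06) and 1.72 after 20 Gy (adjusted p = 2.75e-06), and from 12 h to 24 h by 2.67 after 5 Gy (adjusted p = 8.76e-08) and 2.23 after 20 Gy (adjusted p = 3.93e-07). The sum holds 4 transcripts over the same locus. With the annotated transcript alone, the rise 24 h after 20 Gy was 0.61 and was not called (adjusted p = 0.0675).

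Cxcl16, a membrane-bound chemokine and ligand of CXCR6, had the highest level of the 8 genes in the control and both 12 h groups, and at 24 h it was second to Ackr3. Its single annotated transcript, of 5 exons, spans chromosome 10, 57060007 to 57064600 (reverse strand). The level was 39.8, 40.4 and 43.1 FPKM in the control libraries. At 12 h it was 27.5, 27.2 and 25.8 FPKM after 5 Gy and 27.7, 24.5 and 21.4 FPKM after 20 Gy. By 24 h the values were 23.1, 22.6 and 20.5 FPKM after 5 Gy and 18.6, 20.0 and 17.3 FPKM after 20 Gy. All 12 exposed libraries lay below the control libraries, and the spread within a group was small. The locus overlaps Zmynd15 on the other strand (2.48 FPKM on average), and whether reads were counted by strand is not given in the sources used here.

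The fall of Cxcl16 was 0.60 (SE 0.0906, adjusted p = 0.000655) 12 h after 5 Gy and 0.73 (adjusted p = 0.000197) 12 h after 20 Gy. It fell by 0.87 (adjusted p = 3.93e-06) 24 h after 5 Gy and by 1.10 (adjusted p = 5.36e-07) 24 h after 20 Gy. The fold of the first value lies close to the limit of 1.5, and it went below it with quantile normalization (-0.54), TPM (-0.56), or without the third control library (-0.56) or the third exposed library (-0.57). Between the times, the changes of -0.27 after 5 Gy (adjusted p = 0.0224) and -0.37 after 20 Gy (adjusted p = 0.00372) were below the fold limit.

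Cx3cl1 encodes fractalkine, a membrane-bound ligand of CX3CR1, and none of its comparisons was called. The gene spans chromosome 19, 10644244 to 10653800 (reverse strand), with 1 annotated transcript of 3 exons. Its level was 13.4, 14.6 and 15.3 FPKM in the control libraries. At 12 h it was 13.6, 13.1 and 5.91 FPKM after 5 Gy and 16.0, 13.5 and 10.9 FPKM after 20 Gy. The 24 h libraries held 7.89, 10.996 and 11.9 FPKM after 5 Gy and 4.17, 10.2 and 11.5 FPKM after 20 Gy. All 24 h libraries lay below the control libraries, and the lowest values, 5.91 and 4.17 FPKM, belonged to the pair of libraries that stood apart.

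The log2 fold change of Cx3cl1 from the control group was -0.45 and -0.10 at 12 h after 5 Gy and 20 Gy and -0.47 and -0.78 at 24 h (SE 0.332, adjusted p = 0.0598 for the last). Single libraries decided the value 24 h after 20 Gy. It was -0.38 without the first library of this group, and it was called without the second (-0.94, adjusted p = 0.0488) or the third (-1.02, adjusted p = 0.0289). In the pair of libraries that stood apart, the summed endothelial markers were also the lowest of their groups, with 2.66 FPKM 12 h after 5 Gy and 2.44 FPKM 24 h after 20 Gy, against 4.75 to 5.12 FPKM in the other 4 libraries of these groups. The part of this in the values of Cx3cl1 was not tested.

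**Figure D3:**
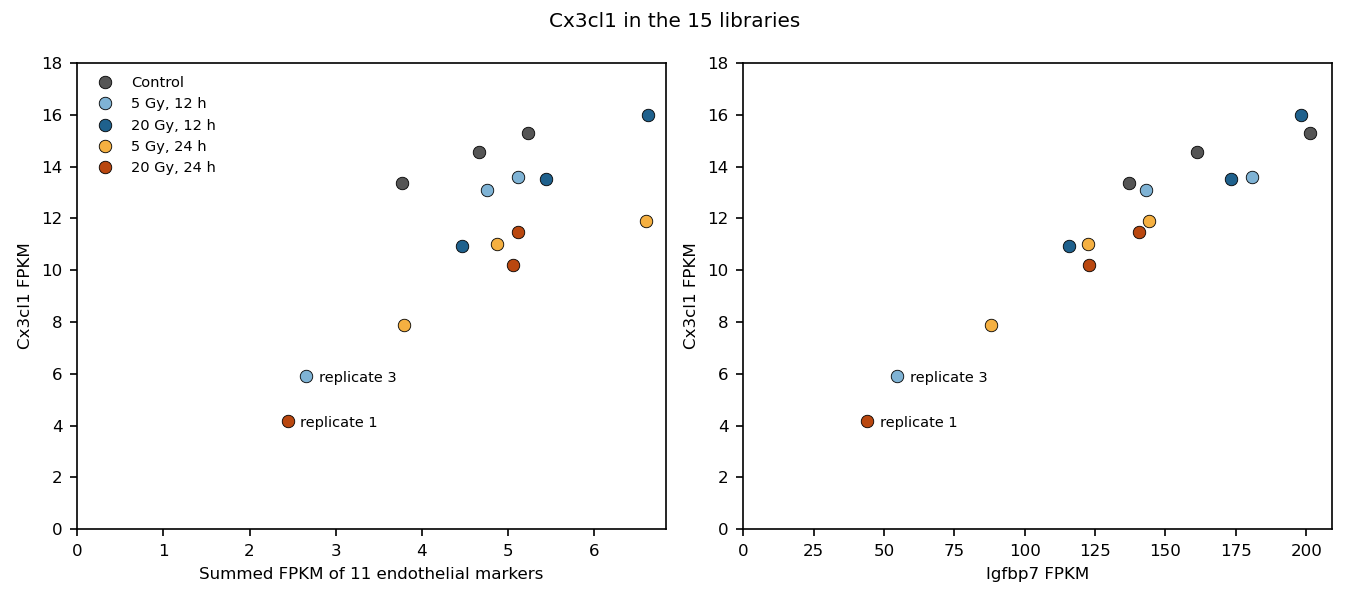
FPKM of Cx3cl1 (y axis) in the 15 libraries against the summed FPKM of 11 endothelial markers (left, x axis) and the FPKM of Igfbp7 (right, x axis), with points coloured by group. Flt1 was the largest part of the marker sum. Igfbp7 was chosen as the gene best correlated with Cx3cl1 over these libraries. The third library 12 h after 5 Gy and the first 24 h after 20 Gy lie at the lower left of both plots, with 5.91 and 4.17 FPKM of Cx3cl1 and 54.7 and 44.0 FPKM of Igfbp7.

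**Figure D4:**
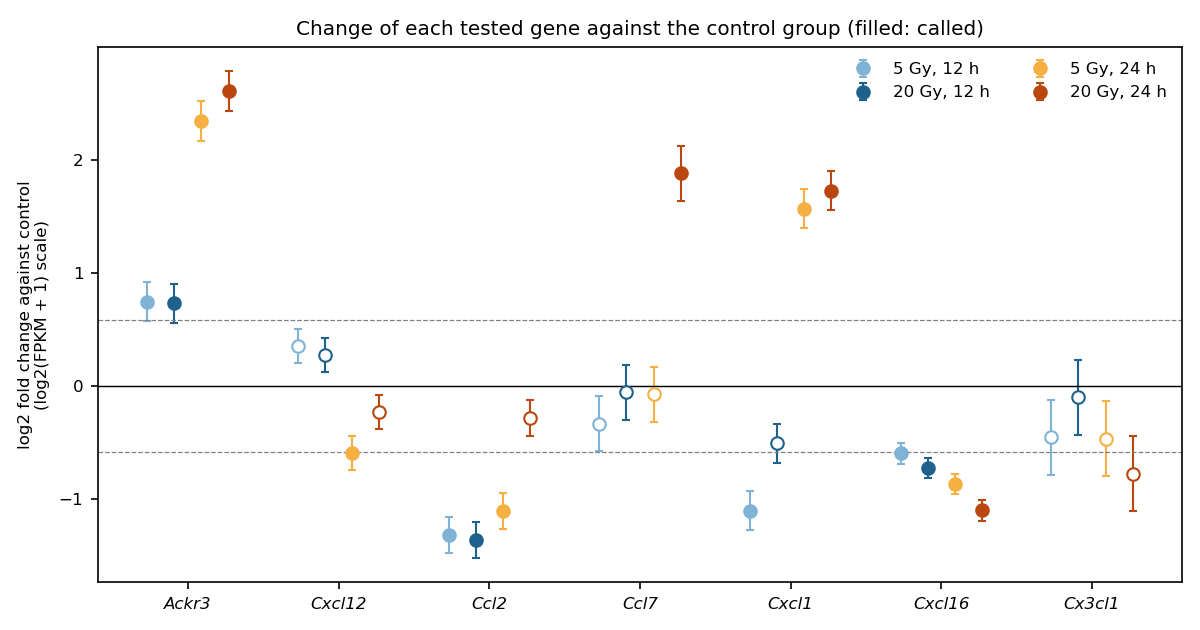
Log2 fold change against the control group on the log2(FPKM + 1) scale (y axis) for the 7 genes tested (x axis) in the 4 exposed groups. Whiskers are the standard error, filled points were called, and dashed lines mark a fold change of 1.5. The points of Ackr3 lie at 0.73 to 2.61 and those of Cxcl16 at -1.10 to -0.60.

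Between the times, 3 of the 7 genes were called after 5 Gy against a background of 36.4% of all genes, and 4 after 20 Gy against 36.3%. The median log2 change from 12 h to 24 h was 0.21 after 5 Gy and 1.08 after 20 Gy for these genes, and -0.08 and -0.15 for all genes tested. Ackr3 and Cxcl1 rose at both doses.

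Compared directly at 12 h, 0 of the 7 genes differed between 20 Gy and 5 Gy in limma, against 0.123% of all genes tested. At an unadjusted p below 0.05 with the same fold limit, where 361 of the 17895 genes tested passed, 1 of the 7 did. This was Cxcl1, with a difference of 0.60 (95% interval 0.21 to 0.98, adjusted p = 0.321). At 24 h, the 2 genes called against a background of 2.42% were Ccl2, higher after 20 Gy by 0.83 (SE 0.160, adjusted p = 0.0121), and Ccl7, higher by 1.95 (SE 0.242, adjusted p = 0.000854). For each of them, all 3 libraries of 20 Gy lay above all 3 of 5 Gy. Ccl7, which passed the filter only through this 20 Gy group, was called in every setting tried, also with no filter (adjusted p = 0.00348), while Ccl2 was not called in the fit of the libraries of both groups alone (adjusted p = 0.114) or with a pseudocount of 0.1 (adjusted p = 0.109). The other intervals at 24 h were -0.12 to 0.65 for Ackr3, -0.22 to 0.54 for Cxcl1, -0.43 to -0.03 for Cxcl16 and -1.05 to 0.43 for Cx3cl1, none of them called.

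The change over time itself differed between the doses for 0 of the 7 genes in limma, against 0.52% of all genes. At an unadjusted p below 0.05 with the same fold limit, where 1047 of the 17895 genes tested passed, it differed for 2 of the 7. These were Ccl7, with 1.68 more after 20 Gy (SE 0.343, adjusted p = 0.0518), and Ccl2, with 0.87 more (SE 0.226, adjusted p = 0.114). Ccl7 passed without the first 20 Gy library at 12 h (1.95, adjusted p = 0.0215), without the third 20 Gy library at 24 h (1.86, adjusted p = 0.0253), and in a model without the trend (adjusted p = 0.049). It had entered the test only through the 20 Gy libraries of 24 h, and with no filter its limma adjusted p was 0.108. Its limma adjusted p reached 0.13 with single libraries left out and 0.218 in the other fits.

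Of 30 further chemokine genes, 24 stayed below 0.5 FPKM in every library, 15 of them at 0 throughout, and 3 entered the test. Cxcl10, an interferon-induced ligand of CXCR3, had 9.34, 12.6 and 20.2 FPKM in the control libraries, 1.62, 3.35 and 4.83 FPKM 24 h after 5 Gy and 1.13, 2.29 and 2.69 FPKM 24 h after 20 Gy. It fell by 1.83 (SE 0.596, adjusted p = 0.0178) and 2.28 (adjusted p = 0.00518) on the log2 scale, and its 12 h libraries overlapped with the control group. Cxcl11, named after its values were seen as the other interferon-induced ligand tested and one that ACKR3 also binds, fell by 0.71 24 h after 20 Gy (SE 0.206, adjusted p = 0.00953), from 0.989 to 1.45 FPKM in the control group to 0.230 to 0.392 FPKM. The value 24 h after 5 Gy was -0.50 (adjusted p = 0.0522). Ccl27 rose at 12 h by 0.74 after 5 Gy (SE 0.220, adjusted p = 0.0339) and 0.69 after 20 Gy (adjusted p = 0.0485) and fell by 0.75 24 h after 20 Gy (adjusted p = 0.0105). It overlaps Il11ra1, a gene on the other strand at 62.2 FPKM on average, and reads of the pair cannot be told apart without strand.

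Among 19 further chemokine receptors (Ccr2, the receptor of CCL2 and CCL7, and Ackr1 were not analysed here), 15 stayed below 0.5 FPKM in every library, Cxcr2 and Cx3cr1, receptors of CXCL1 and CX3CL1, at 0 throughout. Of the 4 tested (Ackr4, Ccr7, Ccr10 and Ccrl2), only Ackr4 was called against the control group. Ackr4 is an atypical receptor that, like ACKR3, takes up its chemokines, and it fell at 24 h, when Ackr3 rose. Its level was 35.2, 36.9 and 36.6 FPKM in the control libraries, 21.4 to 36.8 FPKM in the 12 h libraries, 6.88, 7.96 and 8.16 FPKM 24 h after 5 Gy and 5.07, 9.03 and 6.78 FPKM 24 h after 20 Gy. It fell by 2.11 (SE 0.210, adjusted p = 2.61e-06) and 2.26 (adjusted p = 1.59e-06) at 24 h, and at 12 h its values were -0.26 and -0.18 (adjusted p = 0.437 and 0.622). Ackr4 overlaps Acad11 on the other strand (17.9 FPKM on average).

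Of 21 genes listed as partners of the CXCL12 axis or of ligand shedding or cleavage, 18 were tested. Against the control group, the 12 h comparisons called 1 of them for 5 Gy and 2 for 20 Gy, and the 24 h comparisons called 5 at each dose. Over all genes tested, the shares called were 9.94% and 8.54% at 12 h and 41.3% and 40.3% at 24 h. The median log2 fold change of the 18 genes lay between -0.14 and 0.05. Adm, the gene of adrenomedullin, a peptide that ACKR3 also takes up, fell from 44.1 to 57.3 FPKM in the control group to 11.1 to 12.0 FPKM 24 h after 5 Gy (-1.97, SE 0.104, adjusted p = 1.34e-08) and to 16.0 to 18.2 FPKM 24 h after 20 Gy (-1.46, adjusted p = 1.54e-07). Arrb1, which encodes an arrestin, fell from 4.44 to 11.5 FPKM to 1.32 to 1.90 FPKM (-1.87, SE 0.340, adjusted p = 0.000395) and to 0.753 to 1.24 FPKM (-2.19, adjusted p = 0.00012). Its paralog Arrb2 was called in no comparison with the control group.

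Mmp2, a protease that can cleave CXCL12, rose in all 4 comparisons, by 1.47 (SE 0.1003, adjusted p = 1.87e-06) and 1.61 (adjusted p = 6.42e-07) at 12 h after 5 Gy and 20 Gy and by 1.17 (adjusted p = 6.91e-07) and 1.23 (adjusted p = 4.95e-07) at 24 h. Its level was 90.2 to 92.1 FPKM in the control group and 184 to 288 FPKM in the exposed libraries. Hif1a, a transcription factor of the hypoxia response, rose at 24 h by 0.81 after 5 Gy (SE 0.104, adjusted p = 2.25e-05) and 0.69 after 20 Gy (adjusted p = 9.83e-05). Single calls were made for the receptor kinases Grk2 (0.75, adjusted p = 0.00025, 24 h after 5 Gy) and Grk5 (0.97, adjusted p = 0.018, 12 h after 20 Gy), and for Rgs3, a regulator of G protein signalling (-1.01, adjusted p = 0.00473, 24 h after 20 Gy). The value of Grk2 24 h after 20 Gy was 0.57 (limma adjusted p = 0.00206), just below the fold limit. The shedding proteases Adam10 and Adam17 were called in no comparison with the control group.

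**Figure D5:**
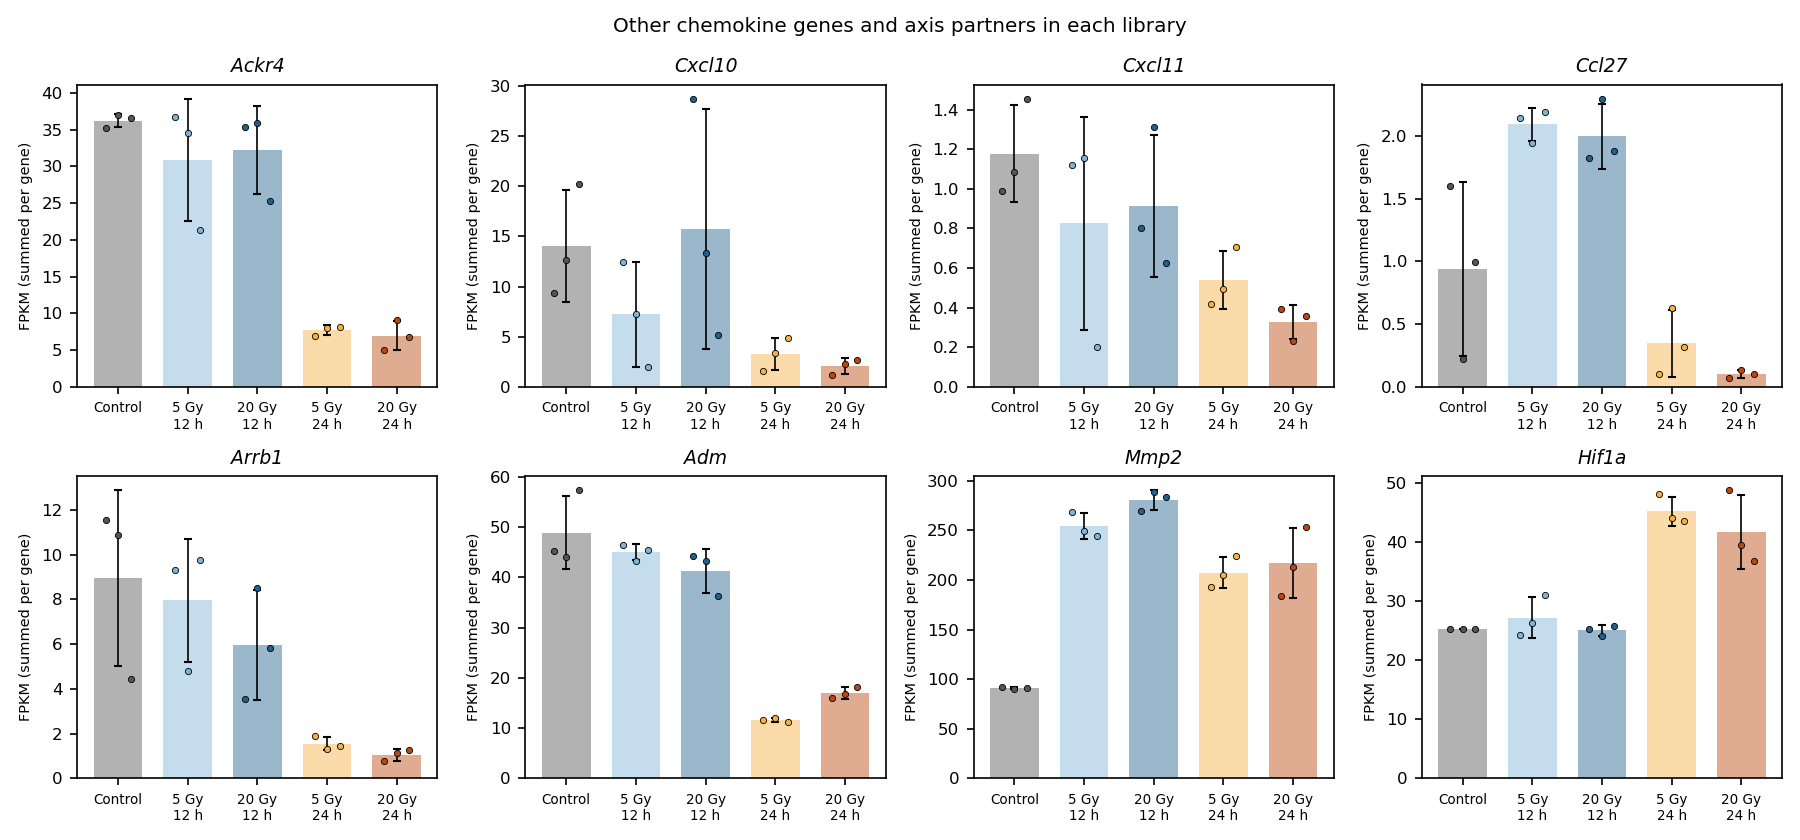
FPKM (y axis, summed per gene, linear and different for each panel) of other chemokine genes and of genes listed as partners of the CXCL12 axis in the 5 groups (x axis). Points are the 3 libraries of a group, bars the mean and whiskers the SD. The 24 h libraries lie at 5.07 to 9.03 FPKM for Ackr4 and 11.1 to 18.2 FPKM for Adm, below all control libraries, and those of Mmp2 at 184 to 254 FPKM, above them.

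For each gene tested, the 3 named genes whose log2(FPKM + 1) correlated best with it over the 15 libraries were listed, from 8497 genes (8498 for the genes below that level) with a mean FPKM of at least 5. The points share 5 groups, so these values describe the group pattern and were not tested. Ackr3 was most like Atp6v1b2, Prr14l and Usp38 (Pearson r = 0.989, 0.989 and 0.988), and Cxcl1 most like Fos, Junb and Rapgef6 (0.989, 0.983 and 0.981). Ccl7 was most like Ociad2, MGC95208 and Jun (0.935, 0.929 and 0.917), and Cxcl16 most like Fads1, Cnn3 and Ranbp1 (0.968, 0.968 and 0.964). The genes most like Cx3cl1 were Igfbp7, A2m and Ace (0.983, 0.978 and 0.975), whose FPKM was also lowest of the group in each of the libraries that stood apart. They were chosen by r over these same libraries, so their low values there are not separate evidence. Lower values were reached by Cxcl12, with Polr2a, Slc22a17 and Adamtsl4 (0.930, 0.927 and 0.923), and by Ccl2, with LOC103692169, Pspc1 and Metrnl (0.882, 0.857 and 0.850).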

How the data were processed

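The libraries were made from messenger RNA of primary BMECs and sequenced as reads of 150 bases. The authors mapped reads with HISAT2 (version 2.0.13 per the labels) to Rnor_6.0, assembled transcripts with StringTie and deposited the FPKM of every transcript as a table. The paper also names Kallisto counts and edgeR, and counts were not analysed here. FPKM holds no counts, so no count model was used. Gene sums (4738 transcripts could not be assigned to a gene) were tested on log2(FPKM + 1) with limma 3.58.1 in R 4.3.3, in a model over all 15 libraries that gave each group its own mean (10 residual degrees of freedom) and let the prior variance follow expression. Tests were two-sided. Library depth was estimated from single-exon transcripts of 300 to 600 bases. There, 37.1% to 45.5% of low values were whole multiples of 1 step within 5% of it, against a median of 5.49% to 6.93% at other steps, so read numbers are approximate. The fit was tested on simulated data. The members and lists were chosen with earlier results of these data known. The genes named are the 8 members, genes of the lists of other chemokines, receptors and partners whose FPKM averages 1 or more and that were called against the control group, and the 3 genes most like each member. Other genes of these lists, such as Cxcl11, Arrb2, Adam10 and Adam17, were named after their values were seen. Left out were the qPCR, calcium, protein and proliferation results.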

Additional observations from a re-analysis of the deposited data

Results flagged for a closer look

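The doses differed directly at 24 h for a pair of genes. Ccl7 was higher 24 h after 20 Gy than 24 h after 5 Gy by 1.95 on the log2(FPKM + 1) scale (SE 0.242, limma adjusted p = 0.000854, and 0.00348 with no filter on low values, which it passed only through the 20 Gy libraries), and Ccl2 was higher by 0.83 (SE 0.160, limma adjusted p = 0.0121). In each case 3 of 3 libraries of 20 Gy lay above those of 5 Gy. With 3 libraries a group, no search for single outlying libraries was made.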

How the results depend on the processing

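The alternatives to the main fit gave 1216 values of single genes in the 9 comparisons. Of these, 1175 kept their side of the threshold, 28 lost a call, 13 gained one, and no called value changed sign. Among values that were not called, 34 had another sign. The count of called genes for 20 Gy against 5 Gy at 24 h was 1 (Ccl7) with a pseudocount of 0.1, with a mean FPKM of at least 1, with only the groups compared, and with a fold change of at least 2. Over all genes tested, these settings called 624, 386, 37 and 119. The count for the change over time between the doses was 1 (Ccl7) without the trend and 2 at an unadjusted p, against 112 and 1047 of all genes. At an unadjusted p, 1 gene differed between the doses at 12 h, against 361 of all genes. With a fold change of at least 2, the 12 h counts were 2 for 5 Gy and 1 for 20 Gy, and the 24 h count for 5 Gy was 3. Of the 17895 genes tested, 588, 433 and 3584 were called in these comparisons. With each library left out in turn, the count 12 h after 5 Gy was 2 to 4, with 2 without the third library of that group, and the count for the change over time between the doses was 0 to 1. Leaving out both libraries that stood apart, a setting chosen after seeing the data, gave 2 genes 12 h after 5 Gy (Ccl2 and Cxcl1), against 1504 of all genes. Gains of single calls were Cxcl1 12 h after 20 Gy, with a pseudocount of 0.1 (-0.87, limma adjusted p = 0.0477) or without the first library of that group (-0.63, limma adjusted p = 0.0422), and Cx3cl1 from 12 h to 24 h after 20 Gy without the third 24 h library (-0.91, limma adjusted p = 0.0484). The cause of these changes was not tested.

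Quantile normalization moved the median log2 change of all genes from -0.14 to -0.03 24 h after 20 Gy and from -0.15 to -0.04 between the times at this dose. It ended 1 call of the 8 genes, that of Cxcl16 12 h after 5 Gy.

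Over all groups, same-numbered libraries did not deviate together more than others. Their r was -0.177 to 0.232, over 0.1 in 4 of 30 pairs, against 9 of 60 pairs with different numbers. Between the doses at the same time, r of same-numbered libraries was 0.161, 0.045 and 0.232 at 12 h. At 24 h it was 0.155, 0.064 and 0.083. Pairs of these groups with different numbers lay at -0.192 to 0.056 at 12 h and -0.102 to 0.022 at 24 h. Whether the numbers pair libraries within a time was not tested. With the replicate number as a block, the counts stayed at 4, 3, 5 and 4 against the control group, and no call of the 8 genes changed.

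Precision is limited by 3 libraries a group and, for Ccl2, Ccl7 and Cxcl1 at 12 h, by 0 to 56 reads a library.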
